A study of Mus musculus with 12 samples.

Results

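The interleukins and their receptors were examined in the cortex of lupus-prone mice. A gene was taken as a member when its name on the array read Il, a number and any further lower-case letters or digits, a rule that uses no measured value. It found 82 genes of the 29608 that the non-control spots of the array name. Of these, 36 are ligands, 39 are receptor chains, 5 are antagonists, inhibitors or binding proteins, and the other 2 carry such a name without being either, namely Il4i1, an amino acid oxidase, and Il1bos, a transcript antisense to Il1b.

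RNA from the cortex of 12 adult female mice was hybridized to 6 two-colour Agilent arrays of 60-base probes, 4 mice in each of 3 groups. MRL/lpr mice carry the lpr mutation of Fas, a death receptor of lymphocytes, and develop a lupus-like disease. Fn14ko mice are MRL/lpr littermates that also lack Fn14, the receptor of the cytokine TWEAK encoded by Tnfrsf12a, so they share the lpr mutation. MRL/+ mice have the MRL background with intact Fas and Fn14 and, by the study's methods, came from another supplier, so origin and genotype cannot be told apart in comparisons with them. On every array 2 mice of one group were hybridized together. Odd-numbered replicates carried the Cy3 label, even-numbered ones Cy5, and numbers 1 and 2 shared an array, as did 3 and 4. Each group had its own slide, and differences between slides cannot be told apart from differences between groups. The labels give each sample as 1 mouse, and no pooling is described.

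Interleukins are secreted proteins that carry signals between immune cells and also between neurons, glia and vessels. Most act on receptors built from a chain that binds the ligand and a chain shared within a family. The IL-1 family receptors signal through Myd88 and IRAK kinases, and most others through JAK kinases and STAT factors. Healthy cortex is known for few of these transcripts. Il34, made by neurons, feeds the microglial receptor Csf1r, Il33 is a nuclear alarmin of glia, and Il18 is a cytokine that caspase-1 activates. Soluble or decoy receptors such as Il13ra2 and binding proteins such as Il18bp limit the signals.

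The probes behind the values below are shown by the first 30 of their 60 bases, as the deposited files give them, because most members rest on a single probe and a value belongs to that stretch of transcript alone. Positions refer to mm9, as deposited with the probes, and whether a probe lies in coding sequence or a UTR was not determined, since no annotation of mm9 was used.
Il16, chr7:90791654-90791713, minus strand: aacagttctgtgagatgcaccctgccatga
Il1r1, chr1:40372667-40372726, plus strand: tacttagatttcaccgtactttctgatggt
Il13ra2, chrX:143818095-143818154, minus strand: ttcttgacatagagccagccagcaggagtc
Il15ra, chr2:11655416-11655475, plus strand: gacaaaaccaaactcagtgactatatatgt
Il15ra, chr2:11654809-11654868, plus strand: aaaccatggaaacagtaccaatgactgtga
Il34, chr8:113265835-113265894, minus strand: aagaacgacggggtgcctcctaggatccca
Il4, chr11:53426076-53426135, minus strand: gtccaagtccacatcactgaaagacttcct
Il12b, chr11:44227121-44227180, plus strand: gctcttcaatcagggcttcgtaggtacatt
The Il16, Il1r1, Il13ra2 and Il34 sequences belong to single spots. The pair for Il15ra is shown because its probes disagreed, and the Il4 and Il12b probes because each was printed 10 times on every array.

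Signals are intensities corrected for background and divided by the channel's median over the retained spots, so that 1 is the median spot of a mouse. Brightness also depends on the probe, so differences were tested between mice only, and an order of genes by signal is an order of probe brightness. The number of arrays limits the precision, and the floor differed between channels. The 153 negative-control spots, which match no mouse transcript, had a median signal of 0.0460 to 0.338 in the 6 Cy3 mice, 0.0990 to 0.213 in the Cy5 mice of MRL/lpr and Fn14ko, and 0.663 and 0.823 in the Cy5 mice of MRL/+. In those 2 MRL/+ mice the scanner software called 35% and 21.2% of all probes well above background, against 56.6% to 70% in the other 10. A dim gene can therefore have a high apparent signal in MRL/+ replicates 2 and 4. Calls of members and pathway genes against MRL/+ by limma's fit are given with and without them.

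Few members were well above background throughout. A gene was called in a mouse where more than 50% of the spots of at least 1 of its probes had that mark. By this rule 28 of the 82 members (34.1%) were called in 0 of 12 mice, beside 21.4% of all genes, and 4 members (4.88%) in all 12, beside 23.9% of all genes. The 4 were Il34, Il11ra1, the receptor of IL-11, Il17d, an IL-17 family ligand, and Il33. Of the 36 ligands 19 were called in no mouse, against 4 of the 39 receptor chains. All 4 mice of a group had the call for 23 MRL/lpr members (28%), 30 Fn14ko members (36.6%) and 4 MRL/+ members (4.88%), beside 54.2%, 55.9% and 24% of all genes. Among the 2 Cy3 mice of each group the counts were 37, 40 and 36 of the 82, beside 63.9%, 65.2% and 62.1% of all genes. Without MRL/+ replicate 4 the MRL/+ count was 11, still under the 23 and 30 of the other groups. The share of all genes without that mouse was not determined. The part of the Cy5 channels in the low MRL/+ number was not tested. No member was called in all 4 mice of 1 group and in 0 of another.

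**Figure D1:**
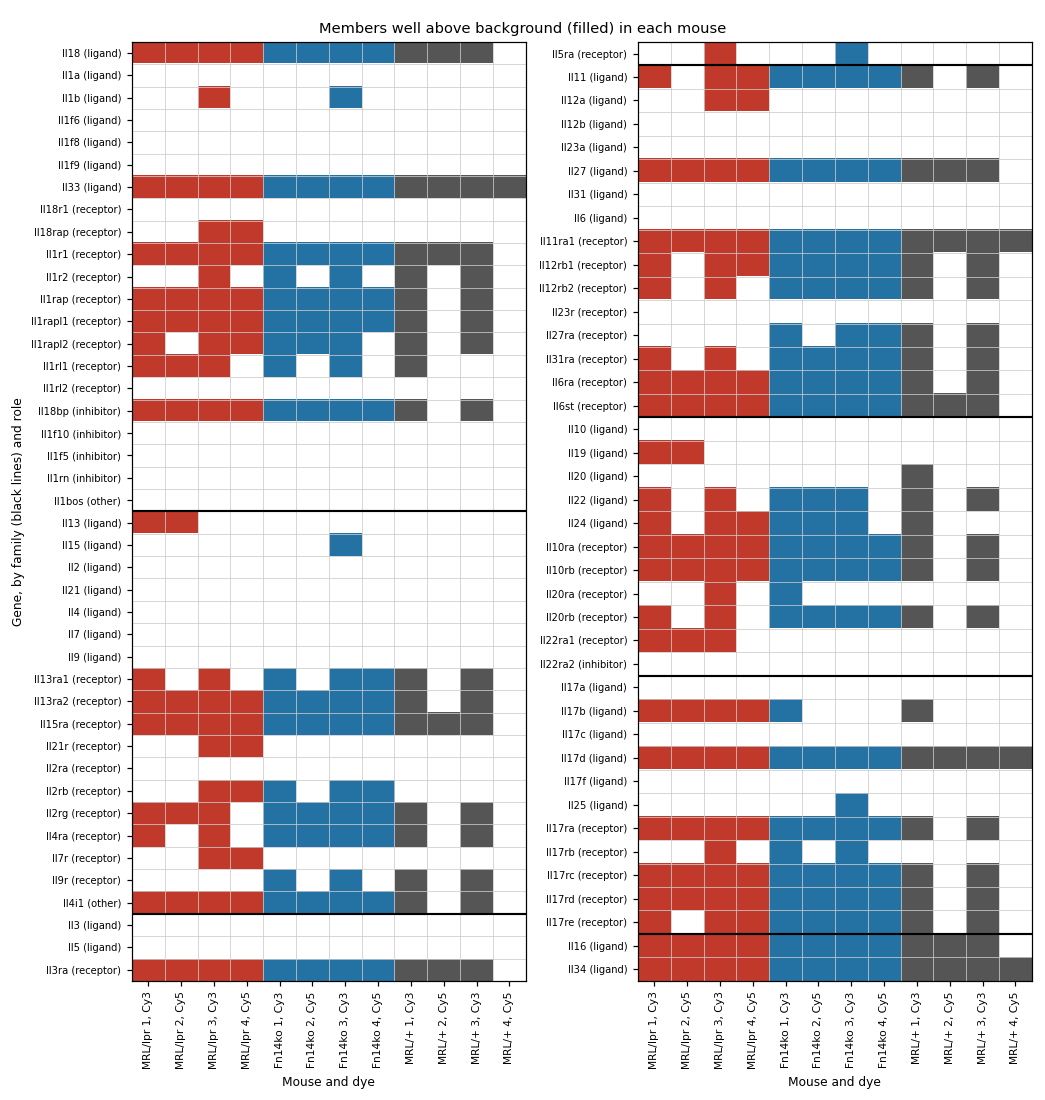
Rows are the 82 members, grouped by family (black lines) with their role in brackets, and columns are the 12 mice with their dye. A filled cell is a gene called well above background, in red for MRL/lpr, blue for Fn14ko and grey for MRL/+. The 28 empty rows are mostly ligands, and the columns of MRL/+ 2 and MRL/+ 4 hold 11 and 4 filled cells.

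Most of the classical cytokines of lymphocytes and inflammation were not detected. Il2, Il4, Il5 and Il21, made by T cells, Il6 and Il1a, inflammatory cytokines, Il10, which restrains inflammation, Il12b, the shared chain of IL-12 and IL-23, Il17a, and Il1rn, the IL-1 receptor antagonist, were called in 0 of 12 mice. Il1b, the main inflammatory IL-1, was called in MRL/lpr 3 and Fn14ko 3 only, and Il15 in Fn14ko 3 only. A missing call does not show that a transcript is absent, since a probe can fail to detect one that is present.

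Il1b, Il4, Il10 and Il12b were printed 10 times on every array, so their spots show how far 1 spot can be trusted. The median of the 10 Il4 spots lay between 0.0540 and 0.597 over the 12 mice and was highest in MRL/+ 2 and 4, the channels with the highest negative controls. The medians of Il1b and Il10 were also highest in those mice, while that of Il12b was 0.315 in MRL/+ 4, under the 0.336 of MRL/+ 1. Single copies stood far above such medians. An Il12b copy read 9.75 in MRL/lpr 1 and 35 in MRL/lpr 2, the mice of 1 array, while the medians there were 0.0530 and 0.124. An Il4 copy read 6.60 and 24.1 on the same array and another 2.45 and 7.32. On another array an Il4 copy read 10.1 in MRL/+ 1 and 27.8 in MRL/+ 2. These readings were bright in both colours of 1 array alone. The Il4 copy at 10.1 and 27.8 was also called in Fn14ko 3 and 4, at 0.112 and 0.171. The copy at 2.45 and 7.32 was also called in MRL/lpr 3 and 4, at 0.0905 and 0.208. Copies called in both channels of an array numbered 10 of 80 in MRL/lpr, 2 of 80 in Fn14ko and 1 of 80 in MRL/+.

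**Figure D2:**
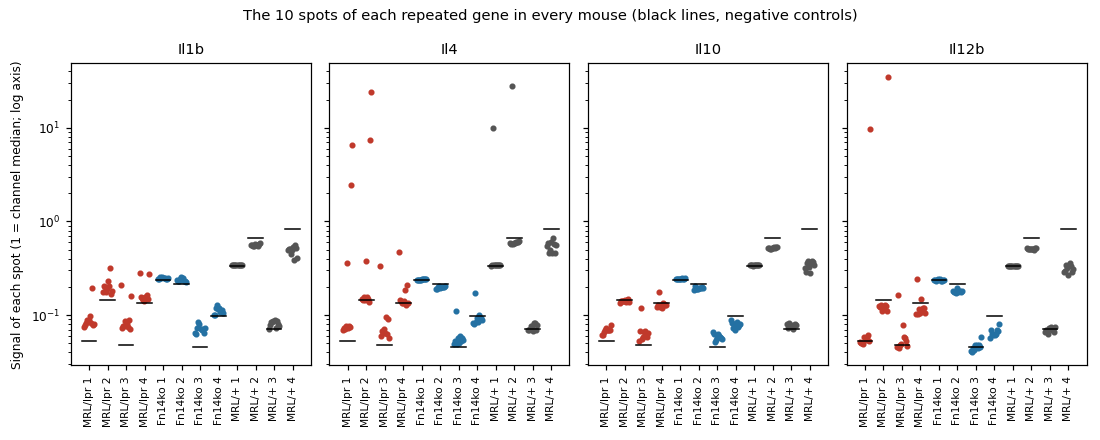
Each point is the signal of 1 of the 10 spots of Il1b, Il4, Il10 or Il12b in a mouse (log axis, 1 is the channel's median), and black lines are the channel's negative controls. Most points of a mouse lie close together near its line, and below it for every gene in MRL/+ 2 and 4. The stray bright ones come in pairs over the 2 mice of 1 array, such as Il12b at 9.75 and 35 in MRL/lpr 1 and 2.

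The same was seen outside the repeated probes. A set of 6 members was called in both mice of 1 MRL/lpr array and in no other mouse: Il7r, the IL-7 receptor, Il19, Il12a, the p35 chain of IL-12, Il13, Il18rap and Il21r. For Il7r the signals were 2.81 and 8.88 in MRL/lpr 3 and 4 and 0.0734 and 0.149 in MRL/lpr 1 and 2. For Il19 they were 2.68 and 8.27 in MRL/lpr 1 and 2 and 0.0791 and 0.137 in the other 2. Il2rb, an IL-2 receptor chain, read 6.54 and 22.7 in MRL/lpr 3 and 4 from a spot that the scanner software marked. Over all genes, 4.39% were called on 1 MRL/lpr array alone, beside 0.132% for Fn14ko and 0.0270% for MRL/+, and the 6 members are 7.32% of the 82. None of these members entered the comparisons, because every spot of theirs was marked or too dim in at least 1 mouse.

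A spot was retained when it carried no such mark and was at least 2 times its local background in all 12 mice, which left 33 of the 82 members, 27 of them from 1 spot. They are 8 ligands, 23 receptor chains, the binding protein Il18bp and Il4i1, so 49 members, 28 of the ligands among them, have no value in the comparisons. In order of probe brightness Il34 came first, from 3.59 to 6.93 over the 12 mice, then Il11ra1 (2.39 to 4.55), Il17d (1.61 to 2.94) and Il6st, the signalling chain gp130 of the IL-6 family (1.53 to 2.81). Only the same 4 members that were called in all 12 mice stayed at 2 times the channel's negative-control signal or more in every mouse. In MRL/+ 2 and MRL/+ 4, 18 and 24 of the 33 were at or below the negative controls, and in the other 10 mice none was. Il11ra1 and Il22 have near-identical copies in the mouse genome, so their signals may hold more than 1 gene.

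**Figure D3:**
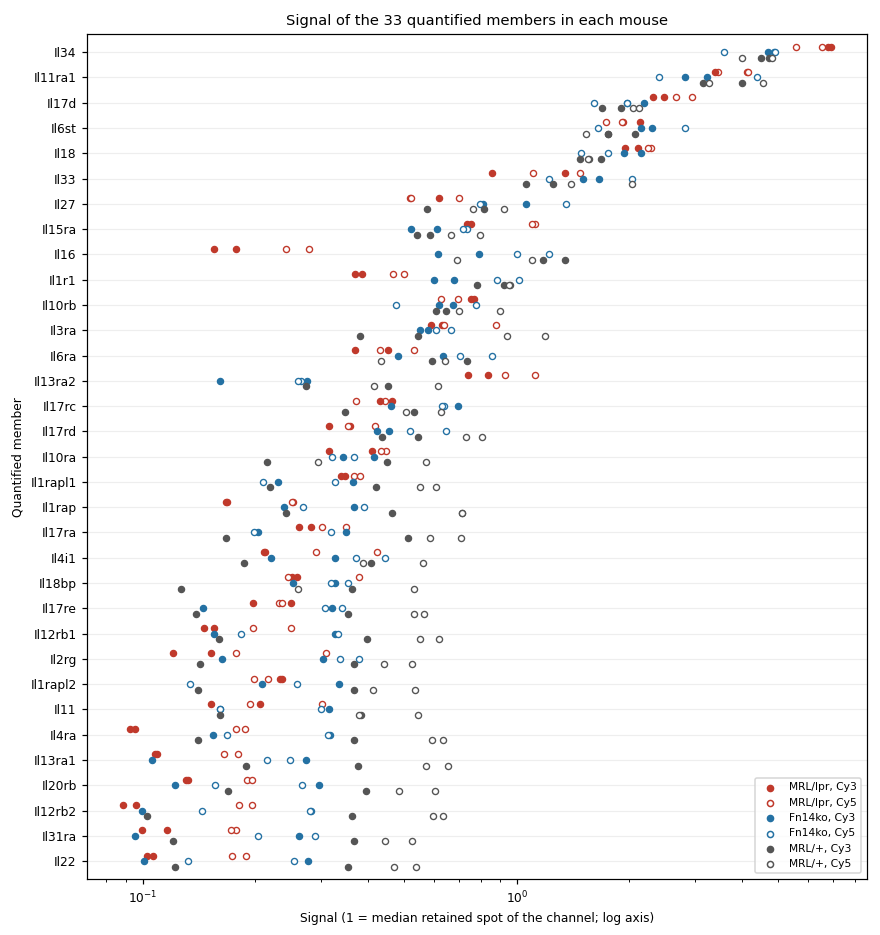
Each row is a quantified member and each point a mouse (red MRL/lpr, blue Fn14ko, grey MRL/+; filled Cy3, open Cy5), on a log axis where 1 is the channel's median. Within their rows the red MRL/lpr points lie to the right of all others for Il34 and Il13ra2 and to the left for Il16 and Il1r1, and in most of the dim rows at the bottom the open grey points of MRL/+ 2 and 4 lie to the right of the other mice.

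MRL/lpr and MRL/+ mice were compared to see which members differ in lupus. In bulk cortex fewer cells of a type and less RNA per cell cannot be told apart. In limma's fit 7 of the 33 members passed an adjusted p of 0.05, 2 higher and 5 lower in MRL/lpr, which is 21.2% of them beside 14.4% of all 17302 genes tested. The signals of the groups did not overlap for 8 members (24.2%), 4 in each direction, beside 23.9% of all genes, so that share is near the background. The median log2 fold change of the members was -0.42, beside -0.10 over all genes. It was -0.13 without the Cy5 mice of MRL/+ and 0.00061 with the scanner software's own processed signal. Dividing by the 75th percentile gave 0 higher and 5 lower, beside 17.2% of all genes past the threshold. Leaving out 1 mouse gave counts from 2, without MRL/+ 4, to 15, without MRL/+ 3, beside 4.51% and 32.1% of all genes. The members past the threshold were Il16, Il1r1, Il1rap, Il17rd and Il13ra1, lower in MRL/lpr, and Il13ra2 and Il15ra, higher.

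Il16, a chemoattractant for CD4 cells that is cut from a longer precursor, fell the most. Its signal was 0.155, 0.279, 0.178 and 0.242 in MRL/lpr replicates 1 to 4, 0.792, 1.22, 0.616 and 1.00 in Fn14ko, and 1.35, 1.10, 1.18 and 0.690 in MRL/+. All MRL/lpr mice lay below all mice of the other groups, and the latter overlapped. The difference from MRL/+ was 5.05-fold (log2 fold change -2.34, SE 0.33, limma adjusted p = 0.00113; exact permutation p = 0.0286, the smallest that 4 against 4 allows). The permutation treats the mice as independent, although 2 share each array. The log2 fold change was -2.93 (limma adjusted p = 0.00018) without the Cy5 mice of MRL/+, where MRL/+ 4 lay at 0.839 times its negative controls. The MRL/lpr signals themselves were only 1.81 to 3.68 times the negative controls.

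Il1r1, the signalling receptor of IL-1, was lower too. Its signal was 0.385, 0.466, 0.370 and 0.499 in MRL/lpr, 0.679, 0.885, 0.603 and 1.02 in Fn14ko, and 0.925, 0.961, 0.783 and 0.955 in MRL/+. Again no MRL/lpr mouse reached the lowest of the others. The difference from MRL/+ was 2.12-fold (log2 fold change -1.08, SE 0.17, limma adjusted p = 0.00189), and -1.23 (adjusted p = 0.00994) without the Cy5 mice of MRL/+. With the processed signal it was -0.76 with an adjusted p of 0.238.

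Il13ra2, a receptor of IL-13 that acts largely as a decoy, was higher. Its signal was 0.739, 0.932, 0.835 and 1.12 in MRL/lpr, 0.274, 0.265, 0.161 and 0.259 in Fn14ko, and 0.452, 0.614, 0.273 and 0.415 in MRL/+. The MRL/lpr mice stood above the other 8, and the Fn14ko mice reached into the MRL/+ range only through their highest value. The rise against MRL/+ was 2.13-fold (log2 fold change 1.09, SE 0.25, limma adjusted p = 0.0146). MRL/+ 2 and 4 were at or below their negative controls for this probe and 2 of the 4 MRL/+ mice had it called well above background; leaving both out gave 1.18 (adjusted p = 0.0607), and without MRL/+ 4 alone the adjusted p was 0.0676.

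Il15ra, which presents IL-15 to neighbouring cells, passed on the mean of its 2 probes (log2 fold change 0.51, SE 0.15, limma adjusted p = 0.0406). Its brighter probe read 1.27, 1.99, 1.25 and 1.94 in MRL/lpr, 0.723, 1.18, 1.03 and 1.25 in Fn14ko, and 0.766, 0.97, 0.879 and 0.724 in MRL/+. On that probe alone the MRL/lpr mice lay above all MRL/+ mice, with a log2 fold change of 0.92 (adjusted p = 0.0156 over the 22419 probes). The dimmer probe gave -0.80 (adjusted p = 0.175), with its highest readings, 0.616 and 0.609, in MRL/+ 2 and 4. The call was lost without those 2 mice (0.46, adjusted p = 0.214).

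The other members past this threshold were dim, and all were lower in MRL/lpr. Il1rap, the chain that Il1r1 needs to signal, read 0.167 to 0.252 in MRL/lpr and 0.463, 0.715, 0.242 and 0.716 in MRL/+ (log2 fold change -1.25, SE 0.35, limma adjusted p = 0.0315). Il17rd, a receptor chain that also dampens growth factor signalling, read 0.314 to 0.417 in MRL/lpr and 0.544, 0.732, 0.437 and 0.810 in MRL/+ (-0.77, SE 0.21, adjusted p = 0.0286), and with the processed signal it turned to 0.13. Il13ra1, a chain of the IL-4 and IL-13 receptor, read 0.108 to 0.179 in MRL/lpr and 0.376, 0.573, 0.189 and 0.655 in MRL/+ (-1.56, SE 0.45, adjusted p = 0.0365). For each of them the highest MRL/+ readings were in the channels where the negative controls stood at 0.663 and 0.823, and 2 of 4 MRL/+ mice had the gene called well above background. Without those mice the log2 fold changes were -0.88, -0.59 and -1.24, with adjusted p-values of 0.265, 0.242 and 0.270, so the direction stayed and the calls were lost with 2 MRL/+ mice left. The part of the raised background in these differences was not tested.

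**Figure D4:**
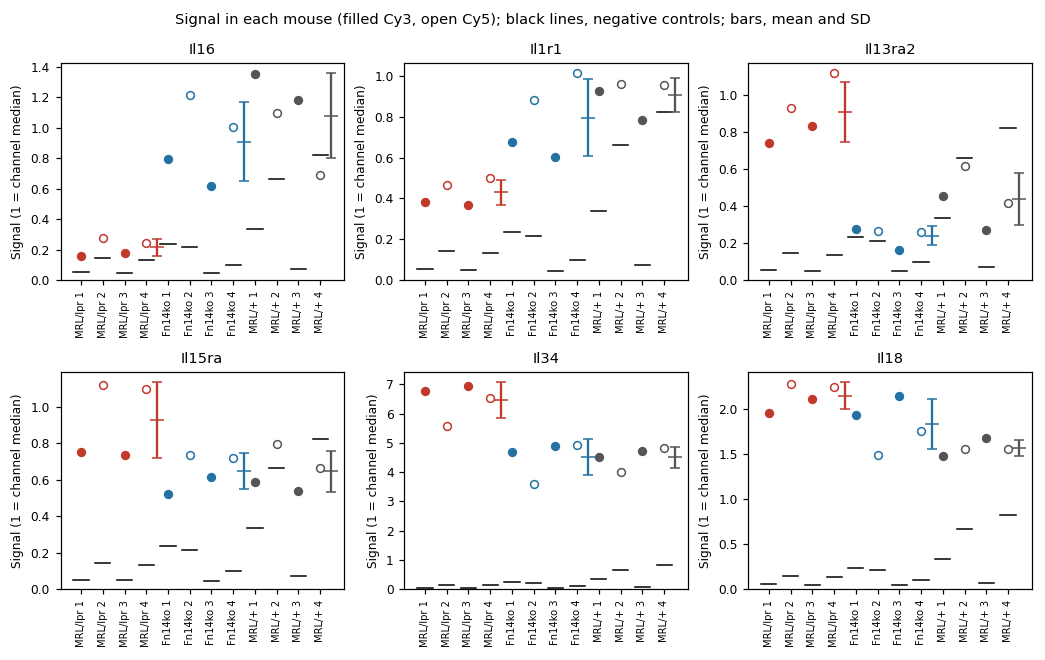
Signal of Il16, Il1r1, Il13ra2, Il15ra, Il34 and Il18 in each mouse (1 is the channel's median; filled Cy3, open Cy5; red MRL/lpr, blue Fn14ko, grey MRL/+), with the group mean and SD beside each group and a black line at the channel's negative controls. Il16 and Il1r1 are lowest and Il13ra2 highest in all 4 MRL/lpr mice, and the lines at 0.663 and 0.823 in MRL/+ 2 and 4 reach the points of the dimmer genes.

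Comparing MRL/lpr with Fn14ko asked which members differ with Fn14 when both groups carry lpr. In limma's fit 3 of the 33 members passed, which is 9.09% beside 4.57% of all genes, and the signals did not overlap for 8 (24.2%), beside 20.3% of all genes. They were again Il16, 4.23-fold lower in MRL/lpr (log2 fold change -2.08, SE 0.33, limma adjusted p = 0.00349), Il1r1, 1.83-fold lower (-0.87, SE 0.17, adjusted p = 0.0103, and 0.0646 without MRL/+ 4, which enters through the shared spread), and Il13ra2, 3.82-fold higher (1.93, SE 0.25, adjusted p = 0.00134). This comparison shares the MRL/lpr mice with the previous one, so the 2 are not independent. It uses no MRL/+ signal for its difference, and the negative controls were 0.0483 to 0.144 in MRL/lpr and 0.0460 to 0.235 in Fn14ko. For Il13ra2 the Fn14ko signals were 1.17 to 3.49 times the negative controls and the MRL/lpr signals 6.47 to 17.3 times. The median of the members was -0.28, beside -0.07 over all genes, and it turned to 0.10 with the negative controls as background.

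Fn14ko against MRL/+ gave no member past the threshold in limma, beside 0.954% of all genes. The unadjusted limma p was under 0.05 for 2 of the 33 members, Il13ra2 and Il13ra1, beside 21.9% of all genes. The methods' t-test called 0 members as well, beside 3.44% of all genes with the study's cut-off and 0.0116% after adjustment. No member had groups that did not overlap, beside 13.5% of all genes. For Il16 the log2 fold change was -0.25 (SE 0.33) and for Il1r1 -0.21 (SE 0.17). Il13ra2 had the lowest p of the named members, at -0.84 (SE 0.25, limma adjusted p = 0.110), lower in Fn14ko. The median of the members was -0.24, beside -0.10 over all genes.

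**Figure D5:**
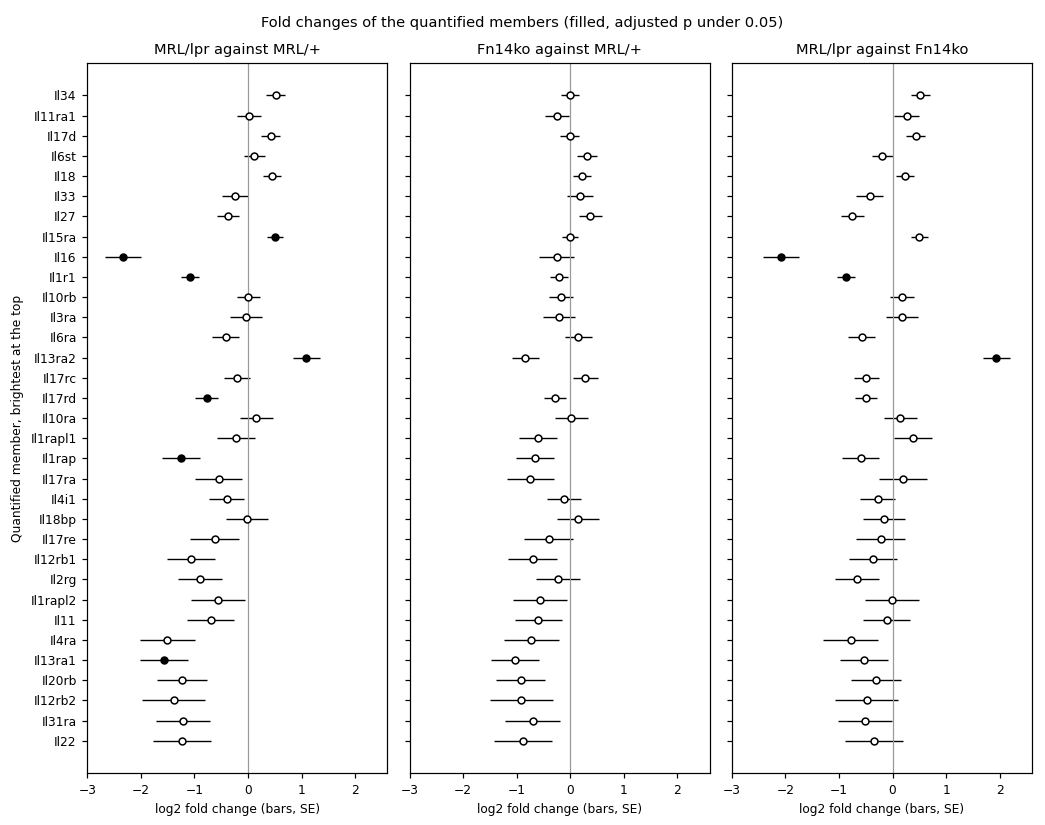
Log2 fold change with its standard error for the 33 quantified members in the 3 comparisons, brightest member at the top, filled where the limma adjusted p is under 0.05. Filled points number 7, 0 and 3, and from Il17re down all points of the panels against MRL/+ lie left of 0.

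Of the 8 quantified ligands Il16 alone passed the threshold of limma's fit in any comparison. Il34 read 6.78, 5.58, 6.93 and 6.54 in MRL/lpr, 4.70, 3.59, 4.87 and 4.91 in Fn14ko, and 4.51, 4.00, 4.72 and 4.81 in MRL/+. Every MRL/lpr mouse was above every other mouse, while Fn14ko and MRL/+ had nearly the same mean, 4.52 ± 0.628 and 4.51 ± 0.361 (SD, n = 4 each). The log2 fold changes were 0.52 against each group (SE 0.17), with limma adjusted p-values of 0.0613 against MRL/+ and 0.115 against Fn14ko, neither past the threshold. The methods' t-test with the study's cut-off called the difference from MRL/+ (unadjusted p = 0.00289), but after Benjamini-Hochberg adjustment its p was 0.0590. For Csf1r, its receptor on microglia, they were 0.52 and 0.26, with limma adjusted p-values of 0.118 and 0.607.

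Il18 read 1.95 to 2.28 in MRL/lpr, 1.49 to 2.14 in Fn14ko and 1.48 to 1.68 in MRL/+. MRL/lpr did not overlap MRL/+, and Fn14ko lay across both. The log2 fold change against MRL/+ was 0.45 (SE 0.17, limma adjusted p = 0.0862), and the methods' t-test called it with the study's cut-off and after adjustment (adjusted p = 0.0411). Its binding protein Il18bp stood at 0.283 ± 0.0648, 0.313 ± 0.0428 and 0.320 ± 0.170 in MRL/lpr, Fn14ko and MRL/+ (SD, n = 4 each), with limma adjusted p-values from 0.830 to 0.974. Il17d was 2.32 to 2.94 in MRL/lpr, above the 1.61 to 2.19 of Fn14ko and the 1.69 to 2.12 of MRL/+, with adjusted p-values of 0.210 and 0.112. This is the mean of 2 probes that differed. Against MRL/+ the brighter gave a log2 fold change of 0.52 and the dimmer -0.09, and against Fn14ko 0.45 and 0.33. Il27, the p28 chain of the cytokine IL-27, was 0.518 to 0.700 in MRL/lpr and 0.80 to 1.35 in Fn14ko (log2 fold change -0.75, SE 0.21, adjusted p = 0.0686). Il33 overlapped in all groups, with means of 1.20 ± 0.272, 1.60 ± 0.338 and 1.44 ± 0.423 in the same order (SD, n = 4 each).

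Among the receptor chains outside the calls, Il6st had means of 1.92 ± 0.167 (MRL/lpr), 2.23 ± 0.476 (Fn14ko) and 1.78 ± 0.221 (MRL/+), each with its SD over 4 mice. Il11ra1 and Il10rb, the shared chain of the IL-10 family, differed by 0.02 and 0.01 on the log2 scale between MRL/lpr and MRL/+, with SEs of 0.23 and 0.22. Differences of these sizes were within the spread of the mice. Il6ra, the IL-6 binding chain, averaged 0.446 ± 0.0667 (MRL/lpr), 0.671 ± 0.156 (Fn14ko) and 0.602 ± 0.127 (MRL/+), again with SDs, and MRL/lpr against Fn14ko had an adjusted p of 0.243. Il10ra, Il17ra, Il2rg, the shared chain of the IL-2 family, and Il1rapl1, a synaptic relative of Il1rap, had adjusted p-values from 0.142 to 0.980 over the 3 comparisons.

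Since Il16, Il1r1 and Il13ra2 passed in both comparisons with MRL/lpr, the 250 bases before their start sites were searched for TTCNNNGAA, the core letters of a STAT site, and TGANTCA, those of an AP-1 site. Both motifs read the same on either strand, and they did not overlap in these windows. Promoter sequences from RefSeq (GRCm38.p6) matched 65 of the 82 members. TTCNNNGAA was in none of the 6 windows of the 3 genes and is in 7.02% of all 32851 windows. TGANTCA was in 1 of the 3 windows of Il16, in neither window of Il1r1 and in the single window of Il13ra2, and is in 6.75% of all windows. The Il13ra2 window, chrX:147429193-147429442 on the minus strand, is shown with its match in capitals.
Il13ra2: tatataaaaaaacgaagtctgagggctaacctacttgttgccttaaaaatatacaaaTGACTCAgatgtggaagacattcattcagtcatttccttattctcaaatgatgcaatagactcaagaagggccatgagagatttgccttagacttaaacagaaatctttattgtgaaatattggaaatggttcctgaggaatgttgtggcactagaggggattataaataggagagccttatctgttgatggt

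Of the pathway genes outside the members, 52 of the 69 listed were quantified. Of these 52, 7 passed in MRL/lpr against MRL/+, beside 14.4% of all genes. In Fn14ko against MRL/+ 1 passed, beside 0.954%, and between MRL/lpr and Fn14ko 2 passed, beside 4.57%. Leaving out 1 mouse gave 2 to 15, 0 to 8 and 1 to 3. The shares of all genes then ranged from 4.51% to 32.1%, 0.0462% to 12.5% and 2.06% to 5.79%. Csf2rb, the shared chain of the IL-3, IL-5 and GM-CSF receptors, was lower in MRL/lpr than in MRL/+ (log2 fold change -1.29, limma adjusted p = 0.0136; -1.12 and 0.112 without the Cy5 mice of MRL/+) and than in Fn14ko (-1.48, adjusted p = 0.0120), though its near-identical copy Csf2rb2 may share its signal. Cntfr, the CNTF receptor, was lower in MRL/lpr (-0.90) and in Fn14ko (-1.23) than in MRL/+, and neither call held without those mice (-0.54 and -0.87, adjusted p = 0.144 and 0.182). Crlf2, a chain of the TSLP receptor, rose in MRL/lpr against MRL/+ (0.77; 0.67 with an adjusted p of 0.189 without them).

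Of the 9 quantified JAK and STAT genes 2 rose in MRL/lpr against MRL/+, Stat2, which carries interferon signals, at 0.65 (SE 0.14, limma adjusted p = 0.0122), and Stat5b at 0.61 (SE 0.16, adjusted p = 0.0223). Without the Cy5 mice of MRL/+ these were 0.64 (adjusted p = 0.0743) and 0.75 (adjusted p = 0.0448). None of the 14 quantified inhibitors of JAK-STAT signalling and none of the 5 quantified genes that process IL-1 cytokines passed in any comparison. Of 12 quantified genes of IL-1 and IL-17 signalling, Traf6, an adaptor below both receptor types, read 0.321 to 0.396 in MRL/lpr and 0.583, 0.798, 0.449 and 0.923 in MRL/+ (-0.94, SE 0.29, adjusted p = 0.0447). Its highest readings were in MRL/+ 2 and 4, and without them the log2 fold change was -0.53 (adjusted p = 0.362).

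The defining genes of cortical neurons were all called in every mouse, and Slc17a7 alone of the 6 differed, lower in MRL/lpr than in MRL/+ (log2 fold change -1.08). One of 10 microglial markers, Aif1, was higher in MRL/lpr against MRL/+ (1.17), and 1 of 6 endothelial markers, Flt1 (1.07). Myelin markers, summed over 6 genes, were 41.3 to 61.8 in MRL/lpr, 61.7 to 82.4 in Fn14ko and 61.6 to 74.8 in MRL/+; Mbp was lower against MRL/+ and Cnp and Mobp against Fn14ko. Choroid plexus markers ranged widely within each group, from 6.68 to 99.2, 13.4 to 181 and 17.0 to 264 in the same order, and Clic6 was lower in MRL/lpr in both comparisons. Without the Cy5 mice of MRL/+ the calls of Flt1, Mbp and Cnp stayed and those of Slc17a7, Aif1, Mobp and Clic6 were lost. The log2 fold changes of Cnp, Mobp and Clic6 against Fn14ko use no MRL/+ signal and stayed at -1.16, -1.18 and -2.96. There the MRL/+ mice enter through the shared spread. Striatal markers, which dissection can bring into cortex, spanned 12.6 to 22.2, 9.12 to 97.6 and 7.40 to 10.01, with no gene past the threshold. No marker of astrocytes, T cells, B and plasma cells or blood monocytes and neutrophils passed in any comparison, and of the T cell markers 4 of 9 were quantified, with Cd3g called in no mouse. The part of these differences in the values of Il16, Il1r1 and Il13ra2 was not tested.

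The targeted genes were read as a check of the labels. Tnfrsf12a was 0.604 to 0.777 in Fn14ko, 1.38 to 1.90 in MRL/lpr and 0.943 to 1.28 in MRL/+, lowest in all 4 knockout mice (log2 fold change of MRL/lpr against Fn14ko 1.27, SE 0.19, limma adjusted p = 0.00287). Against MRL/+ the knockout did not pass, at -0.67 (SE 0.19, adjusted p = 0.104), although the signals did not overlap. Fas was 0.164 to 0.284 in MRL/lpr, 0.171 to 0.331 in Fn14ko and 0.186 to 0.647 in MRL/+, where MRL/+ 3 overlapped the lpr mice (adjusted p = 0.100 for MRL/lpr against MRL/+). Whether either probe lies within the altered stretch of its gene was not determined.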

How the data were processed

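Cortex RNA of 12 mice was read on 6 arrays. The authors deposited the scanner output of each array, made with Feature Extraction 12.1.0.3 per the file headers: the intensity of every spot and of its local background in both channels, quality marks, detection calls and a processed signal. Of 44397 spots 43020 were not controls. After removal of 1952 spots marked as uneven or as outliers and 17781 spots under 2 times local background in any mouse, some in both sets, 24255 spots of 17302 genes remained. No non-control spot was saturated (0).

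Intensities were corrected by normexp (offset 50) in limma 3.58.1 under R 4.3.3, divided by the channel's median, averaged over a gene's spots and taken to log2. The fit had group and dye, the array as random block (consensus correlation 0.316) and a variance trend, with Benjamini-Hochberg adjustment over all 17302 genes and a threshold of 0.05. For single members the 70 divisions of 8 mice gave 2-sided exact permutation p-values, which take no account of the shared arrays. The fit was tested on simulated data. Pathway and marker lists came from textbook knowledge. Named members were those past the threshold, the 10 brightest, those whose groups do not overlap, any called in all mice of 1 group and none of another, and 29 fixed by name. The members and lists were chosen with earlier results of these data known. Python 3.11.15 with pandas 2.3.3 and matplotlib 3.10.9, and the R package data.table (1.17.8), were also used. The alternatives are given in the closing section. The values of 1 pathway gene are not reported here.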

Additional observations from a re-analysis of the deposited data

Results flagged for a closer look

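In 3 cases a single mouse lay far from the other 3 of their group in the signal of a named member, by the gap to the nearest mouse as a share of the group's range. Among the 63 groups of 4 signals examined, chance alone would give about 3.15. Il13ra2 was 0.161 in Fn14ko replicate 3 and 0.259 to 0.274 in the other Fn14ko mice, and that mouse had the lowest negative-control signal of the group, 0.0460. Il34 was 3.59 in Fn14ko replicate 2 and 4.70 to 4.91 in the others. Il18bp was 0.380 in MRL/lpr replicate 2 and 0.244 to 0.258 in the others.

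Il17b, an IL-17 family ligand outside the quantified genes, was called well above background in 4 of 4 MRL/lpr mice, 1 of 4 Fn14ko mice and 1 of 4 MRL/+ mice. Its single spot was marked by the scanner software. It read 0.285, 0.407, 0.585 and 1.22 in MRL/lpr replicates 1 to 4, and in MRL/+ 0.354, 0.566, 0.0928 and 0.597, where the negative controls stood at 0.338, 0.663, 0.0713 and 0.823. The difference was not tested.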

How the results depend on the processing

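Il16 kept its direction in all alternatives and lost the threshold against MRL/+ only with dim spots kept (adjusted p = 0.158) and under the methods' t-test after Benjamini-Hochberg (0.0846). The numbers of members past the threshold for MRL/lpr against MRL/+, Fn14ko against MRL/+ and MRL/lpr against Fn14ko, 7, 0 and 3 as reported, moved by more than 1.5 times as follows. The shares beside them are of all genes tested, and were 14.4%, 0.954% and 4.57% in the reported fit. With foreground minus local background the counts were 12, 2 and 6, beside 29.7%, 16.4% and 16.5% of all genes. With loess and Aquantile they were 12, 2 and 8, beside 27.4%, 8% and 12.7%. Without the array block they were 12, 1 and 6, beside 30%, 10.9% and 10.3%. With no filter on dim spots they were 0, 0 and 0 of 81 members, beside 0.0755%, 0% and 0.11%. With only the 4 members above background in all mice they were 0, 0 and 1, beside 29.7%, 11.5% and 16.1%. The first count was 3 with the processed signal (17.7% of all genes) and 2 with the Cy3 mice only (7.84%). Under the methods' t-test, unadjusted with the study's cut-off, it was 4 (Il16, Il18, Il1r1 and Il34), beside 11.8% of all genes. After adjustment it was 2 (Il18 and Il1r1), beside 4.17%, and the count for MRL/lpr against Fn14ko was 0, beside 1.05%. Of the alternatives chosen after seeing the data, a cap on local background (5 times its median in the channel) gave 2 and 6 for Fn14ko against MRL/+ and MRL/lpr against Fn14ko, beside 13.2% and 14.3%. The negative controls as background also gave 2 and 6, beside 13.6% and 14.6%. Leaving out the Cy5 mice of MRL/+ gave 2 in the first comparison, beside 5.03%. Replicate numbers coincide with dye and array position. Same-numbered mice of different groups had deviations correlated from -0.132 to 0.721. For different-numbered mice the range was -0.688 to 0.303 with the same dye and -0.679 to 0.668 with the other dye. These ranges overlap and cannot tell a pairing of the mice from dye and array position. With the replicate block in place of the dye term the counts were 16, 1 and 6, beside 32.3%, 6.99% and 9.39% of all genes.

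Leaving out 1 mouse gave 2 to 15, 0 to 4 and 2 to 4 members. The first count was 15 without MRL/+ 3 (32.1% of all genes) and 2 without MRL/+ 4 (4.51%). It was 3 or 4 without 1 of the MRL/lpr mice (9.65% to 10.7%) or without Fn14ko 2 (9.37%). The second count was 4 without MRL/+ 3 (12.5%) and 1 without Fn14ko 1 (5.01%). The medians ranged from -0.56 to -0.31, -0.40 to -0.16 and -0.38 to -0.06. They moved beyond the spread between mice to 0.00061 in the first comparison with the processed signal, and to 0.067 and 0.38 for MRL/lpr against MRL/+ and against Fn14ko with only spots above background in all mice. Il17rd turned from -0.77 to 0.13 with the processed signal. Dividing by the 75th percentile shifted the median of all genes against MRL/+ from -0.10 to -0.34, and members moved with it. Members well above background in every mouse numbered 37 in MRL/lpr and 36 in MRL/+ among Cy3 mice (63.9% and 62.1% of all genes). By the positive-and-significant call the numbers over all mice of a group were 39 and 9. Leaving out 1 mouse gave 23 to 28, 30 to 33 and 4 to 11 in MRL/lpr, Fn14ko and MRL/+. For these last 2 settings the shares of all genes were not determined. In the reported counts the share of all genes was also lower in MRL/+, 24% beside 54.2% in MRL/lpr. The cause of these shifts was not tested. Signal over background limits all values under about 2 times the negative controls.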
